A study of Homo sapiens with 12 samples.

Results

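The nuclear-encoded subunits of the respiratory chain and of ATP synthase were followed in 293T cells depleted of RBFOX2, an RNA-binding protein that regulates splicing. Members were chosen by name: every gene whose only symbol on the array began with a subunit prefix of complex I (NDUFA, NDUFB, NDUFC, NDUFS, NDUFV), complex III (UQCR), complex IV (COX4 to COX8) or ATP synthase (ATP5), and the 4 complex II genes SDHA, SDHB, SDHC and SDHD. Names of assembly factors beginning with NDUFAF, of pseudogenes, and ATP5C1 were left out. The rule took 79 of the 22085 gene symbols on the array, with 1622 of 672085 probe sets that carry a single symbol, 988 for exons and 634 for exon-exon junctions. The name rule takes 4 tested genes that encode no subunit: ATP5S and ATP5SL, now DMAC2L and DMAC2, COX7A2L, a factor of respiratory supercomplexes, and NDUFB2-AS1, an antisense RNA. The sources used here do not say how the array separates strands, so the value of NDUFB2-AS1 is uncertain.

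293T is a human embryonic kidney line that carries SV40 large T antigen. There were 4 groups of 3 arrays: a control group given a non-target hairpin, and groups given shRNA1, shRNA2 or shRNA3, each a single hairpin RNA against RBFOX2. All 4 groups had been infected with lentivirus, put under puromycin at 1 ug/mL after 48 hours and kept in it for 10 days, so the controls share the virus and the selection. RBFOX2 was at 48.7%, 72.6% and 59.7% of control with shRNA1, shRNA2 and shRNA3. The median log2 signal ranged from 7.24 to 7.27 over the arrays, and 2 arrays correlated at 0.991 to 0.995 across probe sets. Neurofilament genes that mark this line were measured above the level cutoff in 17 of 18 probe sets of NEFL, 23 of 27 of NEFM and 8 of 8 of INA, against 13 of 91 for the leukocyte gene PTPRC, 7 of 67 for the hepatocyte gene ALB and 0 of 3 for the endothelial gene PECAM1. The fibroblast gene COL1A1 (104 of 121) and the muscle gene DES (14 of 21) were mostly above it as well. The labels number the replicates but do not call them separate cultures, so p-values rest on differences among these arrays, which may be technical only. RNA was measured in bulk, where fewer cells of a type and less RNA per cell cannot be told apart.

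Complex I passes electrons from NADH, and complex II from succinate, to ubiquinone. Complex III passes them on to cytochrome c, and complex IV to oxygen. Complexes I, III and IV pump protons across the inner mitochondrial membrane, and ATP synthase, complex V, uses the gradient to make ATP. Most subunits are encoded in the nucleus and a few in mitochondrial DNA, and many of those counted here are small accessory proteins around a catalytic core.

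Gene values are averages of log2 signal over probe sets above a level cutoff (log2 6.53), and 75 of the 79 members had the required 3 or more: 32 of complex I, 4 of complex II, 7 of complex III, 14 of complex IV, 14 of complex V and the 4 that are not subunits. ATP5L2 and UQCRHL were not tested because each had 1 probe set. COX7B2 had 2 of 15 probe sets above the cutoff and COX8C 1 of 5. A gene was called at an adjusted p below 0.05 in limma, adjusted over all 16648 genes. Changes are differences of log2 values, shRNA minus control, with the SE of the fit.

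More subunit genes were lower than higher with each hairpin, and the falls were small. With shRNA1, 7 of the 75 members were called lower and 0 higher in limma (at an unadjusted p below 0.05, 28 lower and 2 higher, where all genes gave 13.2% and 12.5%), where 4.07% of all genes tested were lower and 5.99% higher. With shRNA2, 13 were lower and 1 higher (all genes: 8.63% and 5.92%). With shRNA3, 24 were lower and 1 higher (all genes: 14.8% and 12%). For the mean of the 3 hairpins 26 were lower and 2 higher (all genes: 12.8% and 10.3%). As shares these were 9.33%, 17.3%, 32% and 34.7% of the members lower. The median change over all 75 members was -0.07 with shRNA1, -0.07 with shRNA2 and -0.09 with shRNA3, against -0.01, 0.00 and 0.02 over all genes tested. The largest fall of any member for the mean of the hairpins was that of ATP5J, to 85.1% of control (adjusted p = 0.0137), which was not called without control replicate 1 (-0.17; adjusted p = 0.110). In all, 51 members lay below 0 with all 3 hairpins, 8 lay above 0 with all 3, and 16 differed in sign. With the single hairpins 76%, 80% and 77.3% of members lay below 0, and 57.6%, 49.3% and 44% of all genes. The share of all genes below 0 with all 3 was not counted. The 3 comparisons share the same control arrays. Of the 75 members 44 were not called in any comparison with control.

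**Figure D1:**
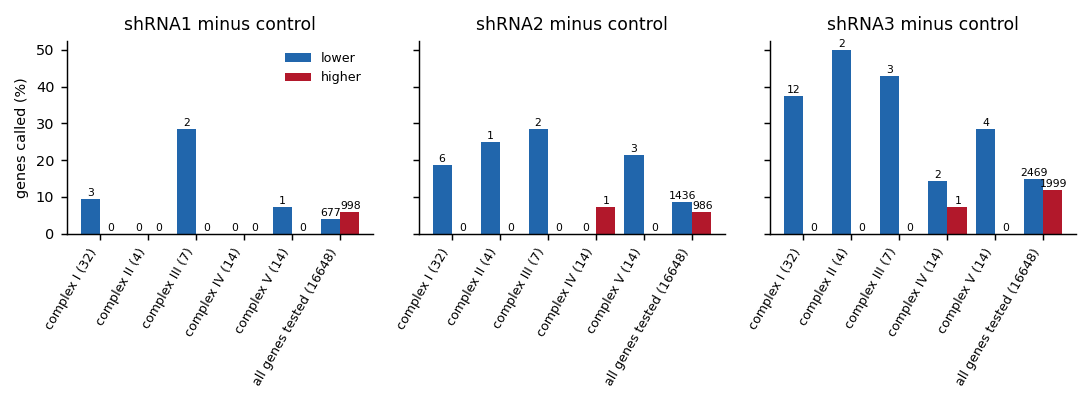
Percent of tested genes called lower (blue) and higher (red) with each hairpin against control, by complex and for all genes tested; the number tested stands in brackets on the x axis and the number called above each bar. Complexes I, II, III and V have no gene called higher, and complex IV has few calls in either direction.

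Control replicate 1 stood apart from the other 2 controls in these genes. The median deviation of the members from the control mean was 0.07 on control replicate 1, and -0.02 and -0.04 on replicates 2 and 3. On the 9 knockdown arrays it was between -0.11 and -0.03. Control replicate 1 was the highest of the 12 arrays for 48 of the 75 members (64%), and for 15.5% of all genes tested. The median of all genes lay within 0.03 of the control mean on every array. Without control replicate 1, no member was called with shRNA1 (18, or 24%, had an unadjusted p below 0.05 in limma, 13 of them lower, against 20.5% of all genes). With shRNA2, 4 were then lower and 1 higher, with shRNA3 13 and 1, and for the mean of the 3 hairpins 8 and 2. All genes then gave 1.31%, 3.83%, 8.58% and 5.93% lower, and 2.59%, 2.82%, 6.59% and 5.29% higher. The median member changes became -0.03, -0.04 and -0.04, all on the same side of 0 as before. All 9 knockdown arrays lay below all 3 control arrays for 16 members (all genes: 7.79%). Leaving out a control array cannot lower this count, and below control replicates 2 and 3 alone it was again 16 (all genes: 9.59%). None had all 9 above all 3 controls (all genes: 5.5%). The shRNA1 count also fell to 0 without shRNA1 replicate 2, and to 2 and 4 without shRNA1 replicates 1 and 3. The shRNA2 total of 14 became 6 without shRNA2 replicate 2, and the shRNA3 total of 25 became 12 without shRNA3 replicate 1.

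**Figure D2:**
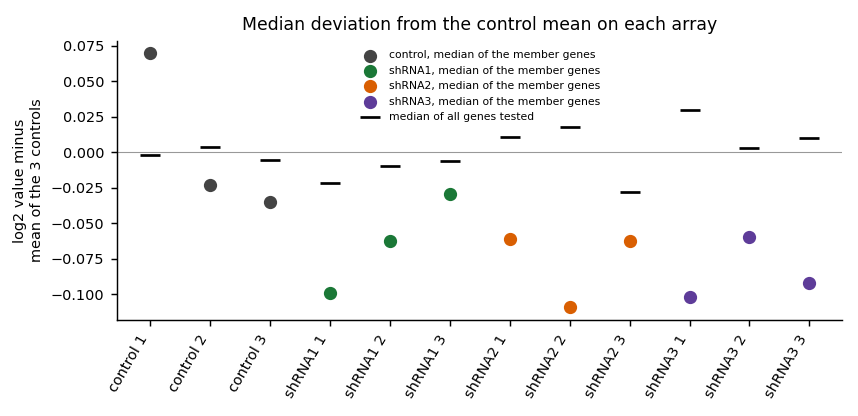
Median over the 75 member genes (circles, coloured by group) and over all 16648 genes tested (dashes) of the log2 value minus the mean of the 3 control arrays, for each of the 12 arrays. Control replicate 1 is the only array whose member median is above 0, while the median of all genes stays near 0 on every array.

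Exon and junction probe sets leaned the same way. Of 1254 probe sets of the tested members, 65.6%, 69% and 68.6% were below control with shRNA1, shRNA2 and shRNA3, against 50.1%, 50.4% and 48% of 419648 probe sets of all tested genes. The share was 66.5%, 70.3% and 71.1% for 790 exon probe sets and 64.2%, 66.8% and 64.2% for 464 junction probe sets. Members of any level were also set beside genes with a level of 9 or more and a like number of probe sets. All genes at level 9 or more gave 4.77%, 12% and 25.8% lower with shRNA1, shRNA2 and shRNA3. Among genes with a level of 9 or more and under 15 probe sets, 7.53%, 17.2% and 25% were lower with shRNA1, shRNA2 and shRNA3, and the median changes were -0.04 with each. Among members of any level with under 15 probe sets, 3, 8 and 13 of 39 were lower (7.69%, 20.5% and 33.3%). Their median changes were -0.07, -0.05 and -0.09. Of the 36 members with 15 or more probe sets, 4, 5 and 11 were lower (11.1%, 13.9% and 30.6%). Genes with a level of 9 or more and 15 or more probe sets gave 4.1%, 10.7% and 26% lower.

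In complex I, 3, 6 and 12 of the 32 tested genes were lower with shRNA1, shRNA2 and shRNA3, and none was higher. These were 9.38%, 18.8% and 37.5%, where all genes gave 4.07%, 8.63% and 14.8% lower. For the mean of the hairpins the 13 that fell were all among the 27 accessory subunits, and none was among the 5 core subunits NDUFS1, NDUFS3, NDUFS7, NDUFV1 and NDUFV2. That difference was not tested. With shRNA3 the core subunit NDUFS3 was called lower as well (-0.15; SE 0.05; adjusted p = 0.0379), also without control replicate 1 (-0.17; adjusted p = 0.0476). Without that array 0, 0 and 7 genes of complex I were lower with the hairpins, and 3 for the mean. As shares these were 0%, 0%, 21.9% and 9.38%, where all genes gave 1.31%, 3.83%, 8.58% and 5.93% lower. NDUFA9, an accessory subunit where the 2 arms of the enzyme meet, had values of 10.37, 10.23 and 10.29 in the controls, 10.15, 10.07 and 10.19 under shRNA1, 10.20, 10.08 and 10.17 under shRNA2, and 9.96, 10.00 and 9.99 under shRNA3. Every knockdown array was below every control array, and the shRNA3 arrays were the lowest. It fell by 0.16, 0.14 and 0.31 (SE 0.05 each; adjusted p = 0.0387, 0.0471 and 0.000507), and 24 of its 27 probe sets were lower for the mean of the hairpins.

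NDUFA2 and NDUFA8, also accessory subunits, fell with shRNA2 and shRNA3. NDUFA2 had 10.11, 9.90 and 9.98 on the controls and between 9.70 and 9.88 on the knockdown arrays, with changes of -0.16, -0.19 and -0.23 (SE 0.05; adjusted p = 0.0684, 0.0292 and 0.00714). NDUFA8 had 10.29, 10.13 and 10.09 on the controls and between 9.92 and 10.05 on the knockdown arrays, with changes of -0.16, -0.20 and -0.21 (SE 0.05; adjusted p = 0.0564, 0.0178 and 0.0079). Neither gene had an overlap between control and knockdown arrays, and in both the top array was control replicate 1. Without it the mean change of NDUFA2 missed the threshold (-0.14; adjusted p = 0.0575), while that of NDUFA8 passed (-0.13; adjusted p = 0.0423).

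In complex II the 2 membrane anchor subunits SDHC and SDHD fell for the mean of the hairpins, and the catalytic subunits SDHA and SDHB did not pass the test. SDHC had 10.82, 10.76 and 10.75 on the controls, 10.65, 10.65 and 10.71 under shRNA1, 10.66, 10.65 and 10.65 under shRNA2, and 10.59, 10.64 and 10.55 under shRNA3. Control and knockdown arrays did not overlap, and the mean change was -0.14 (SE 0.03; adjusted p = 0.00424), which was not called with the median in place of the mean over probe sets (-0.13; adjusted p = 0.130). SDHD had 9.17, 9.08 and 9.01 on the controls and changed by -0.16, -0.14 and -0.21, passing the test with shRNA3 (SE 0.05; adjusted p = 0.00838) and for the mean (-0.17; adjusted p = 0.00897), but not for the mean without control replicate 1 (-0.13; adjusted p = 0.0762). The iron-sulfur subunit SDHB changed by -0.06, -0.05 and -0.10 (SE 0.04; adjusted p = 0.333, 0.332 and 0.0525). SDHB was called for the mean of the hairpins without the level cutoff (-0.10; adjusted p = 0.0289) and on exon probe sets alone (-0.09; adjusted p = 0.0256).

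In complex III, 2, 2 and 3 of 7 genes were lower with shRNA1, shRNA2 and shRNA3 (28.6%, 28.6% and 42.9%). All genes gave 4.07%, 8.63% and 14.8% lower. Without control replicate 1 the complex III counts were 0, 2 and 2 (0%, 28.6% and 28.6%), where all genes gave 1.31%, 3.83% and 8.58% lower. UQCR10, a small accessory subunit, had 11.22, 11.04 and 11.05 on the controls, 10.89, 10.88 and 10.97 under shRNA1, 10.88, 10.83 and 10.87 under shRNA2, and 10.87, 10.87 and 10.95 under shRNA3. All 9 knockdown arrays were below all 3 controls. It fell by 0.19, 0.25 and 0.21 (SE 0.05; adjusted p = 0.0240, 0.00549 and 0.00669), to 86.2% of control for the mean, and its 9 probe sets were lower with each hairpin. UQCRFS1, the Rieske iron-sulfur protein that takes electrons from ubiquinol, had 10.31, 10.31 and 10.24 on the controls and between 10.08 and 10.18 on the knockdown arrays. It fell by 0.16, 0.18 and 0.12 (SE 0.03; adjusted p = 0.0131, 0.00481 and 0.0203), and its 4 probe sets were lower with shRNA1 and shRNA2 and 3 of them with shRNA3. UQCRB, an accessory subunit, changed by -0.08, -0.15 and -0.22 and passed with shRNA3 (SE 0.06; adjusted p = 0.0106). Its mean change of -0.15 (adjusted p = 0.0257) became -0.09 without control replicate 1 (adjusted p = 0.207).

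**Figure D3:**
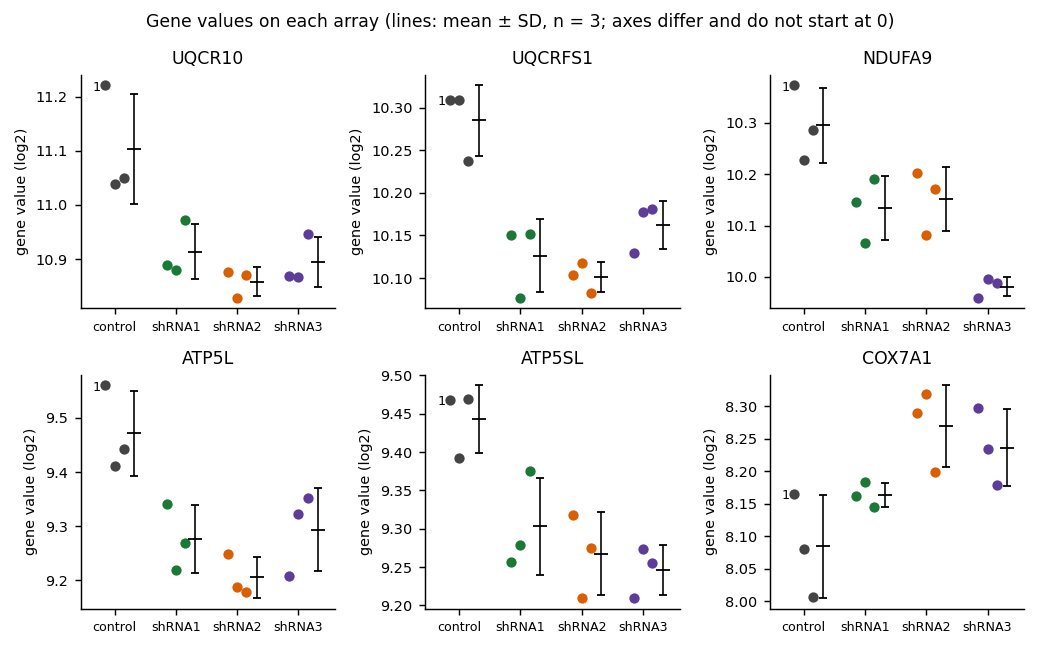
Gene values (log2) on each of the 12 arrays for the 5 members called lower with all 3 hairpins and for COX7A1, the only member called higher with a single hairpin; control replicate 1 is marked with a 1 and lines give mean ± SD of 3 arrays. In the first 5 panels every knockdown array is below every control array, and in COX7A1 shRNA1 overlaps the controls.

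In ATP synthase all 14 genes had a mean change below 0, though ATP5B (-0.0011) and ATP5H (-0.0045) were close to it. Without control replicate 1 the mean change of ATP5H was 0.05. Of the 14 genes, 1, 3 and 4 were called lower with shRNA1, shRNA2 and shRNA3. These were 7.14%, 21.4% and 28.6%, where all genes gave 4.07%, 8.63% and 14.8% lower. Without control replicate 1 the ATP synthase counts were 0, 2 and 1 (0%, 14.3% and 7.14%), where all genes gave 1.31%, 3.83% and 8.58% lower. ATP5L, now ATP5MG, encodes subunit g of the membrane part, which is involved in dimer formation. It had 9.56, 9.41 and 9.44 on the controls, 9.34, 9.22 and 9.27 under shRNA1, 9.25, 9.19 and 9.18 under shRNA2, and 9.21, 9.32 and 9.35 under shRNA3. It fell by 0.19, 0.27 and 0.18 (SE 0.05; adjusted p = 0.0242, 0.00404 and 0.0177), with no overlap between control and knockdown arrays. For the mean of the hairpins all 10 of its probe sets were lower, but the mean change of -0.21 became -0.07 on exon probe sets alone (adjusted p = 0.135) and -0.10 with the median in place of the mean over probe sets (adjusted p = 0.188). ATP5J, now ATP5PF, encodes coupling factor 6 of the peripheral stalk. Its values were 9.75, 9.57 and 9.55 on the controls and 9.28, 9.39 and 9.26 under shRNA3, a change of -0.32 (SE 0.07; adjusted p = 0.00760), while shRNA1 (-0.17; adjusted p = 0.160) and shRNA2 (-0.21; adjusted p = 0.0711) missed the threshold. Without control replicate 1 the shRNA3 change was -0.25 (adjusted p = 0.0407), while the mean change of -0.23 (adjusted p = 0.0137) became -0.17 (adjusted p = 0.110).

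ATP5G1, ATP5G2 and ATP5G3 encode precursors of 1 mature protein, the c subunit that forms the rotor ring. ATP5G1 changed by -0.15, -0.15 and -0.19 (SE 0.06; adjusted p = 0.108, 0.0832 and 0.0233), ATP5G3 by -0.10, -0.13 and -0.09 (SE 0.04; adjusted p = 0.130, 0.0374 and 0.0819) and ATP5G2 by -0.04, -0.10 and -0.03 (SE 0.04; adjusted p = 0.633, 0.100 and 0.628). For the mean of the hairpins ATP5G1 (-0.17; adjusted p = 0.0196) and ATP5G3 (-0.11; adjusted p = 0.0255) passed, and neither did so without control replicate 1 (adjusted p = 0.138 and 0.182).

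Complex IV, cytochrome c oxidase, had the fewest calls of the larger complexes: of 14 genes, none was called under shRNA1, 1 was higher under shRNA2, and under shRNA3 2 were lower and 1 was higher. Its median mean change was -0.02, and 57.1% of its genes lay below 0. Over all genes 4.07%, 8.63% and 14.8% were lower with the hairpins and 5.99%, 5.92% and 12% higher. For the mean 48.6% of all genes lay below 0, 41.8% of those with a level under 9 and 62.2% of those at 9 or more. Among complex IV genes above 0, COX4I2, COX6A2, NDUFA4L2 and COX7A1 had control means of 7.25, 7.64, 7.78 and 8.08. COX4I1 and COX6A1, also above 0, had 11.07 and 12.96, while COX6C (8.57) and NDUFA4 (8.96) lay below 0. Whether signal level plays a part was not tested. Without control replicate 1 no complex IV gene was called lower, and 1 was higher with shRNA2 and 1 with shRNA3 (7.14% each). All genes then gave 1.31%, 3.83% and 8.58% lower with the hairpins and 2.59%, 2.82% and 6.59% higher. COX6B1, a subunit on the intermembrane side, had 11.06, 10.68 and 10.79 on the controls and between 10.50 and 10.81 on the knockdown arrays. The groups overlapped, and its mean change of -0.21 (SE 0.08) was not called (adjusted p = 0.0603) and became -0.10 without control replicate 1 (adjusted p = 0.399). COX7B (-0.17; SE 0.06; adjusted p = 0.0421) and COX8A (-0.18; SE 0.06; adjusted p = 0.0340) fell with shRNA3. Without control replicate 1 the shRNA3 change of COX8A was -0.13 (adjusted p = 0.150). The mean change of COX7B went from -0.14 (adjusted p = 0.0401) to -0.07 (adjusted p = 0.304) without control replicate 1. NDUFA4, named for complex I but a subunit of complex IV, changed by -0.05, -0.12 and -0.10 (SE 0.04; adjusted p = 0.507, 0.0815 and 0.119).

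The member that rose was COX7A1, the isoform of heart and skeletal muscle. It had 8.17, 8.08 and 8.01 on the controls, 8.16, 8.18 and 8.15 under shRNA1, 8.29, 8.32 and 8.20 under shRNA2, and 8.30, 8.23 and 8.18 under shRNA3. The shRNA2 and shRNA3 arrays lay above all controls and the shRNA1 arrays overlapped them. The changes were 0.08, 0.18 and 0.15 (SE 0.05; adjusted p = 0.305, 0.0170 and 0.0265), and none of its 9 probe sets was lower for the mean of the hairpins. The mean change of 0.14 (adjusted p = 0.0169) was 0.18 without control replicate 1 (adjusted p = 0.0162), but was not called without control replicate 2 (0.14; adjusted p = 0.0533) or 3 (0.10; adjusted p = 0.128), without the level cutoff (0.07; adjusted p = 0.222) or with the median over probe sets (0.22; adjusted p = 0.0702). Its ubiquitous counterpart COX7A2 changed by -0.07, -0.09 and -0.09 (SE 0.06; adjusted p = 0.535, 0.409 and 0.285), and without control replicate 1 by 0.02, 0.01 and 0.00 (adjusted p = 0.828, 0.920 and 0.965).

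Other isoforms of complex IV subunits did not pass the test. COX4I1, the common isoform of subunit 4, had changes of 0.10, 0.10 and 0.08 (SE 0.05; adjusted p = 0.265, 0.223 and 0.299). COX4I2, which is induced by low oxygen, had -0.01, 0.06 and 0.09 (SE 0.06; adjusted p = 0.927, 0.558 and 0.249). NDUFA4L2, a paralog of NDUFA4 that low oxygen also induces, had 0.01, 0.04 and 0.07 (SE 0.04; adjusted p = 0.952, 0.484 and 0.135). The common COX6A1 had 0.05, -0.01 and 0.01 (SE 0.03), and the muscle isoform COX6A2 had 0.06, 0.16 and 0.14 (SE 0.06; adjusted p = 0.600, 0.0969 and 0.117). COX6B2, COX7B2 and COX8C were not tested.

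**Figure D4:**
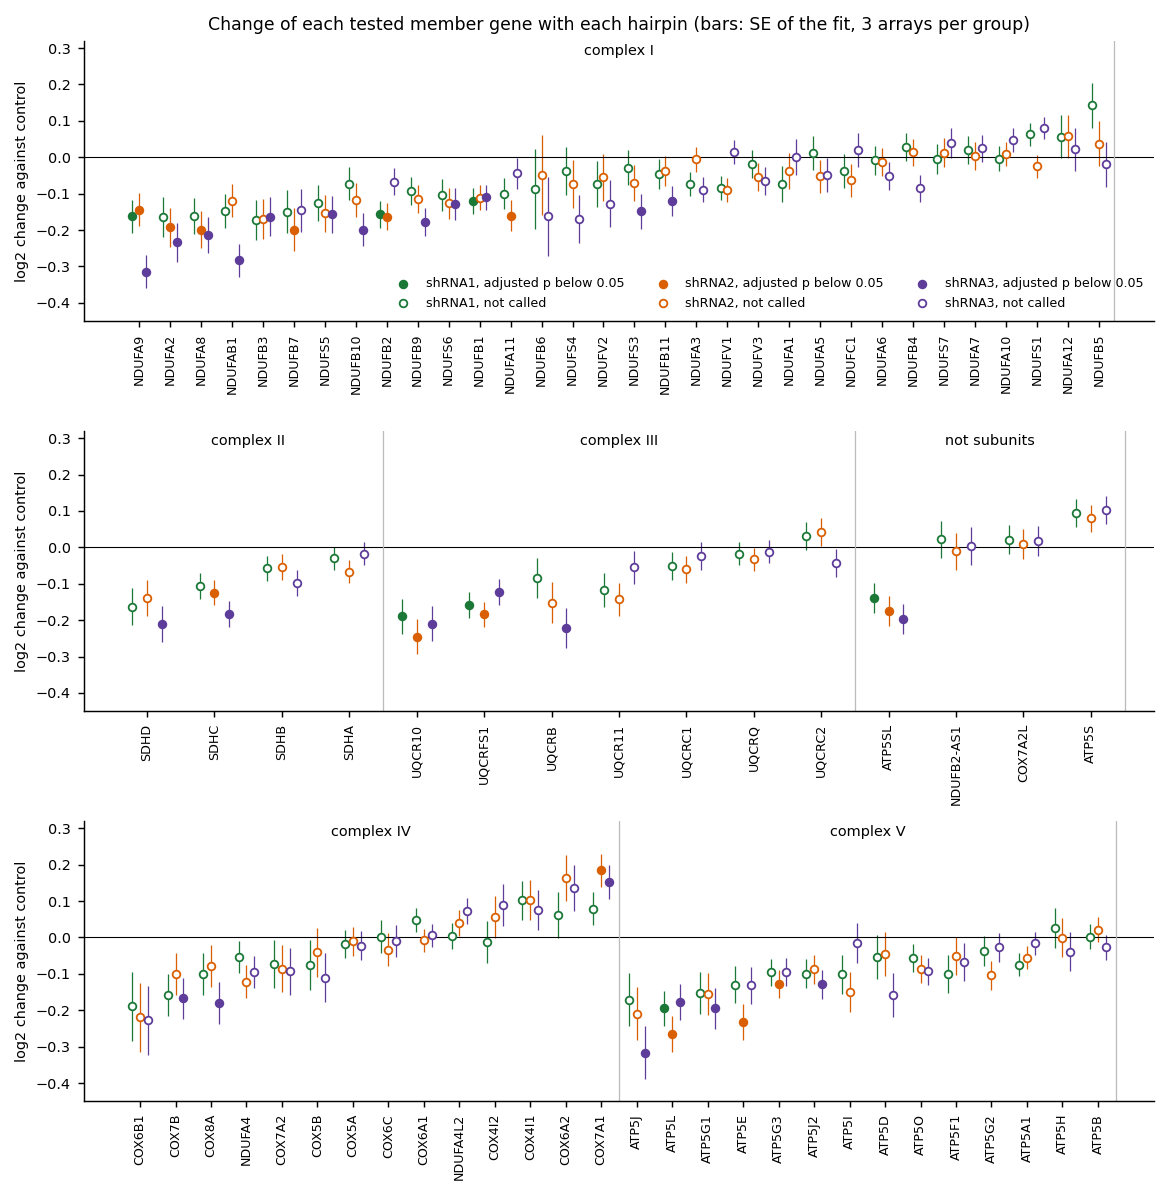
Log2 change against control of each of the 75 tested members with shRNA1, shRNA2 and shRNA3, with the SE of the fit; filled points passed an adjusted p below 0.05. Genes are grouped by complex and ordered by their mean change. Most points lie below 0, and complex IV spreads on both sides of it.

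Of the 4 genes that are not subunits, ATP5SL and ATP5S moved apart. ATP5SL, now DMAC2, is a factor in the assembly of the membrane arm of complex I. It had 9.47, 9.39 and 9.47 on the controls and between 9.21 and 9.37 on the knockdown arrays, with no overlap. It fell by 0.14, 0.18 and 0.20 (SE 0.04; adjusted p = 0.0471, 0.0132 and 0.00444). With the replicate number as a block it was no longer called with all 3. ATP5S, now DMAC2L, had 8.81, 8.74 and 8.73 on the controls and between 8.80 and 8.90 on the knockdown arrays, which overlapped. Its changes of 0.09, 0.08 and 0.10 (SE 0.04) did not pass for any single hairpin, and passed for the mean (0.09; adjusted p = 0.0452), though not without control replicate 2 (0.08; adjusted p = 0.151) or 3 (0.08; adjusted p = 0.192), among others.

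With all 3 hairpins, 5 members were called lower (ATP5L, ATP5SL, NDUFA9, UQCR10 and UQCRFS1) and 0 higher, where 2.17% of all genes were lower and 2.5% higher with all 3. The calls of all 5 depended on single arrays. None was called with all 3 hairpins without control replicate 1, where 0.505% of all genes were lower, or without shRNA1 replicate 2. Only UQCR10 was without shRNA3 replicate 1. For the mean of the hairpins all 5 passed without any 1 array, with UQCR10 between -0.25 and -0.16 and NDUFA9 between -0.24 and -0.17.

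Upstream sequence is shown for 3 of these 5 genes, because subunit genes are known to share binding sequences of nuclear respiratory factors. The sequences are the 250 bases before the RefSeq start (GRCh38.p14), 5′ to 3′ on the gene's strand. Capitals mark a match, on either strand, to the NRF1 motif (nuclear respiratory factor 1), CCGGAAG (ETS family), AANATGGC (YY1) or ACGTG (hypoxia response). NDUFA9 is at chr12:4648864-4649113 (+), UQCRFS1 at chr19:29213152-29213401 (-) and UQCR10 at chr22:29767119-29767368 (+).
NDUFA9: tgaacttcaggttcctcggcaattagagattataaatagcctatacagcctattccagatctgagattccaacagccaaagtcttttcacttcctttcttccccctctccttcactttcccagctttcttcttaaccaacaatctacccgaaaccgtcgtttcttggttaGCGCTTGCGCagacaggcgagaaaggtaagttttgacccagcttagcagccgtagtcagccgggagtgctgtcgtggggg
UQCRFS1: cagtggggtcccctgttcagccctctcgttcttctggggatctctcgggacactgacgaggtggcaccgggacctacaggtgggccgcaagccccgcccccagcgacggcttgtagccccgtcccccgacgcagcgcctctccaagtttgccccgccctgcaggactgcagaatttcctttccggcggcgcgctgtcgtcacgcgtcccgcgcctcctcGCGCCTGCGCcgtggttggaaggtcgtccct
UQCR10: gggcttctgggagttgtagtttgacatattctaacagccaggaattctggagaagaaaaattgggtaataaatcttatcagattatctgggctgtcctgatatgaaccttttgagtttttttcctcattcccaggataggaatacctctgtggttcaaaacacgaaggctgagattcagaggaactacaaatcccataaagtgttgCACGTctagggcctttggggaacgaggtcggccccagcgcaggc

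The NRF1 match begins 80 bases before the start in NDUFA9 and 31 bases before it in UQCRFS1, and UQCR10 holds an ACGTG match. The 250 bases of ATP5L and ATP5SL held no match to any of the motifs. An upstream sequence was at hand for 61 of the 75 tested members and for 13119 of all tested genes. The NRF1 motif occurred in 18 of the 61 (29.5%) and in 10.6% of all. CCGGAAG occurred in 23% and 12.9%, AANATGGC in 4.92% and 3.63%, and ACGTG in 26.2% and 21.7%. The NRF1 motif was found upstream of members lower for the mean of the hairpins in 7 of 20 (35%) and of the other members in 11 of 41 (26.8%). CCGGAAG occurred in 3 of the 20 (15%) and in 11 of the 41 (26.8%), AANATGGC in 2 (10%) and 1 (2.44%), and ACGTG in 2 (10%) and 14 (34.1%). These splits were not tested. A match describes the letters only, and a missing match says nothing of whether a factor binds.

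Between the hairpins themselves no member differed in limma. At an unadjusted p below 0.05 there were 2 members between shRNA2 and shRNA1, 11 between shRNA3 and shRNA1, and 10 between shRNA3 and shRNA2 (2.67%, 14.7% and 13.3%), where 13.4%, 33.1% and 21.1% of all genes had one. At the adjusted threshold 1.19%, 7.1% and 3.56% of all genes passed. The largest differences were -0.16 for NDUFB5 between shRNA3 and shRNA1 (adjusted p = 0.0998) and -0.17 for NDUFA9 between shRNA3 and shRNA2 (adjusted p = 0.0540). Without control replicate 1, which no such difference uses but which enters the shared spread, 2 members differed between shRNA3 and shRNA1, and 2 between shRNA3 and shRNA2.

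Exon use within the members was mostly even. For 1248 probe sets in 73 member genes, the signal was taken relative to the mean of the gene's other probe sets, and calls needed a relative change of 1.5-fold or more besides an adjusted p below 0.05. With shRNA1 1 member probe set was called (0.0801%; all probe sets 0.129%), with shRNA2 1 (0.0801%; all 0.22%) and with shRNA3 4 (0.321%; all 0.195%). For the mean of the hairpins 1 was called (0.0801%; all 0.16%), and none between hairpins (all 0.0177%, 0.00311% and 0.0189%). At an unadjusted p below 0.05 in limma, with no minimum size, 69, 130 and 165 member probe sets differed between hairpins (5.53%, 10.4% and 13.2%), where all probe sets gave 6.62%, 11.8% and 13.7%. Against control, 173, 251 and 223 had such a p with the hairpins (13.9%, 20.1% and 17.9%; all 13.2%, 18.7% and 15.9%). For the mean 254 had one (20.4%; all 18.4%). Without the minimum difference 3, 17 and 10 were called with the hairpins (0.24%, 1.36% and 0.801%; all 0.329%, 1.12% and 0.799%) and 29 for the mean (2.32%; all 1.61%). Relative changes for the mean were within 1.2-fold for 94.4% of them. The junction JUC12013357.hg.1 of NDUFA12, an accessory subunit of complex I, was the only one called with all 3 hairpins (all probe sets: 0.0386%). Its signal was 8.08, 8.28 and 7.84 on the controls, 9.23, 9.42 and 9.22 under shRNA1, 8.98, 9.77 and 9.33 under shRNA2, and 9.83, 9.54 and 9.33 under shRNA3. It lay above every control on all 9 arrays, and was 2.41-fold, 2.54-fold and 3.05-fold higher relative to the gene. The other 11 probe sets of NDUFA12 had mean changes between -0.31 and 0.08, and the gene value was not called with any hairpin. This call with all 3 was lost when any 1 control array, any 1 shRNA1 array or shRNA2 replicate 3 was left out.

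The other probe sets were called with shRNA3 alone, and the difference from the other hairpins did not pass the test. Exon probe set PSR21003817.hg.1 of ATP5J had a signal of 11.66, 11.67 and 11.63 on the controls and between 11.76 and 12.02 on the knockdown arrays, above all controls. The other 18 probe sets of ATP5J had mean changes between -0.57 and -0.06. Relative to them it changed by 0.33, 0.49 and 0.61 (SE 0.12; adjusted p = 0.287, 0.0765 and 0.0491). Exon probe set PSR05025578.hg.1 of NDUFA2 changed by -0.45, -0.43 and -0.65 relative to its gene (SE 0.12; adjusted p = 0.155, 0.102 and 0.0402), with 7.32, 7.01 and 7.47 on the controls and 6.19, 6.62 and 6.50 under shRNA3. Its shRNA3 mean of 6.44 lay below the level cutoff of 6.53. The other 11 probe sets of NDUFA2 had mean changes between -0.57 and 0.03. Exon probe set PSR19000533.hg.1 of NDUFS7, a core iron-sulfur subunit of complex I, changed by -0.18, -0.28 and -0.68 (SE 0.10; adjusted p = 0.490, 0.176 and 0.0180). It had 7.92, 7.87 and 7.99 on the controls and 7.53, 7.06 and 7.30 under shRNA3, and the other 39 probe sets of NDUFS7 had mean changes between -0.28 and 0.41. The count of 4 with shRNA3 was 1 without control replicate 3 and 2 without control replicates 1 or 2, among others.

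**Figure D5:**
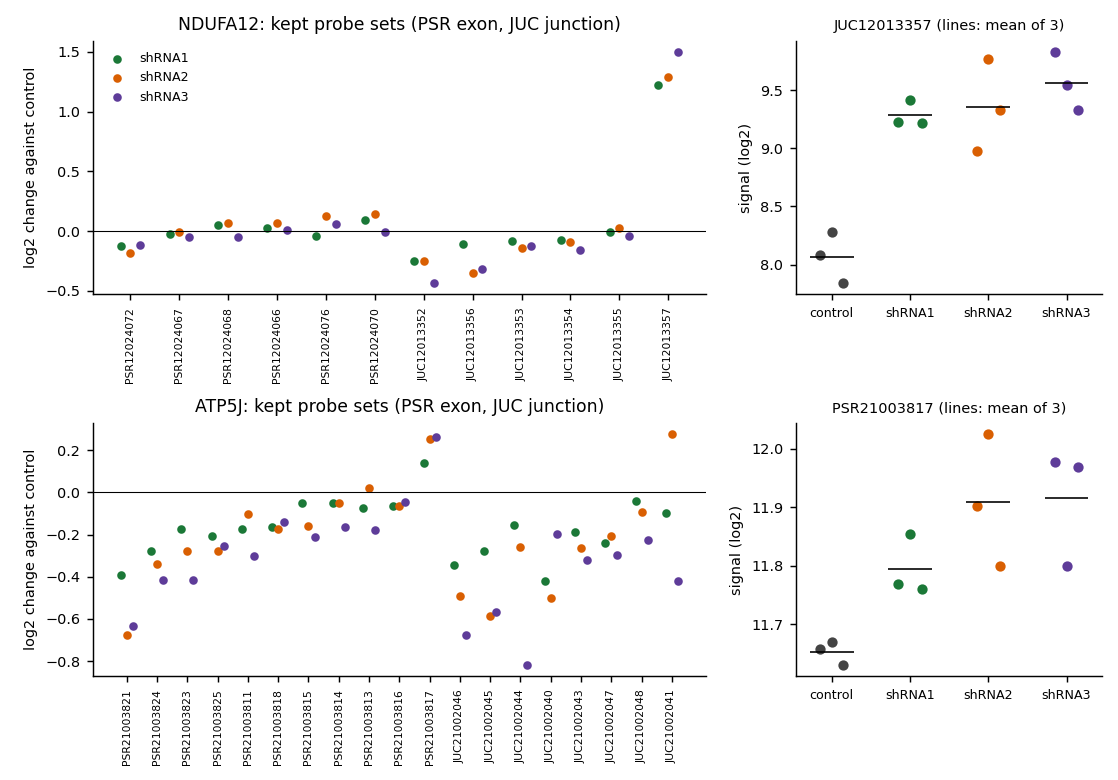
Left, log2 change against control of every probe set of NDUFA12 and ATP5J that passed the level cutoff, with each hairpin; right, the signal of the called junction of NDUFA12 and the called exon of ATP5J on each array, with group means as lines (axes do not start at 0). The junction JUC12013357 and the exon PSR21003817 rise on all 9 knockdown arrays. For the mean of the hairpins their genes' other probe sets stay near 0 or fall. With shRNA2 the ATP5J junction JUC21002041 also rises, by 0.275, and 16 of the 19 ATP5J probe sets are lower.

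Lists of related genes were counted in the same fits, for the mean of the hairpins (all genes: 12.8% lower, 10.3% higher). Of 5 measured subunits and partners that the name rule does not take, 3 fell and 0 rose: ATP5C1, the gamma subunit (-0.15; SE 0.03; adjusted p = 0.00325), ATPIF1, the inhibitor of ATP synthase (-0.14; SE 0.04; adjusted p = 0.0102), and C14orf2, now ATP5MJ. Of 47 assembly factors 13 fell and 4 rose, with a median of -0.02. COA3, needed to build complex IV, changed by -0.30 (SE 0.06; adjusted p = 0.00229) and NDUFAF1, needed to build complex I, by -0.24 (SE 0.03; adjusted p = 0.000445). Of 19 genes of mitochondrial gene expression and biogenesis 7 fell and 0 rose, with the mitochondrial transcription factor TFB2M at -0.29 (SE 0.06; adjusted p = 0.00483) and the terminator MTERF1 at -0.21 (SE 0.04; adjusted p = 0.00182). With single hairpins, 1, 5 and 8 genes of the last list were lower with shRNA1, shRNA2 and shRNA3 (all genes: 4.07%, 8.63% and 14.8%). Called higher were 0 with shRNA1 and 1 with each of the others (all genes: 5.99%, 5.92% and 12%). Those higher were PPARGC1A with shRNA2 (0.29, adjusted p = 0.00129 in limma) and PERM1 with shRNA3 (0.17, adjusted p = 0.0306). Without control replicate 1 the counts of these 3 lists for the mean were 2 and 0, 8 and 0, and 5 and 0. All genes then gave 5.93% lower and 5.29% higher.

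Of 12 genes of the tricarboxylic acid cycle, which supplies NADH and succinate, 3 fell and 2 rose. Those that rose were IDH2, the mitochondrial NADP-dependent isocitrate dehydrogenase (0.33; SE 0.05; adjusted p = 0.00065), and SUCLG2, a subunit of succinyl-CoA ligase (0.16; SE 0.04; adjusted p = 0.0126). A list of 14 hypoxia-related genes that bear on respiration also held HIF1A, EPAS1 and ARNT, which encode hypoxia-inducible factor subunits. Of the 14, 9 rose and 0 fell, with a median of 0.15. ARNT was among those that rose (0.08, adjusted p = 0.0372 in limma). HIF1A (-0.11, adjusted p = 0.0579) and CA9 (0.02, adjusted p = 0.750) were not called for the mean, and HIF1A was called lower with shRNA2 (-0.19, adjusted p = 0.0156). EPAS1 was called lower with shRNA1 (-0.14, adjusted p = 0.0455 in limma) and higher with shRNA3 (0.12, adjusted p = 0.0476). For the mean it was not called (0.02, adjusted p = 0.740). PDK1, the kinase that inhibits pyruvate dehydrogenase, was at 0.56 (SE 0.07; adjusted p = 0.000223) and BNIP3, a receptor for removal of mitochondria, at 0.40 (SE 0.07; adjusted p = 0.0011). Without control replicate 1 these 2 lists gave 1 lower and 1 higher, and 0 lower and 6 higher (all genes: 5.93% lower and 5.29% higher). None of the 13 subunits encoded in mitochondrial DNA had a probe set with a single symbol that could be tested here.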

How the data were processed

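RNA of 12 arrays in 4 groups of 3 was analysed. Per the submitters' processing notes, Affymetrix Expression Console and RMA were used. The genome build is not given in the sources used here, nor are tool versions. Judged by their range, the deposited values are log2 signals, and they were not normalized again. Symbols came from the platform annotation. Only probe sets with 1 symbol were used, and 340 with several symbols, a member's among them, were left out. Through a table of RefSeq names (GRCh38.p14), 2474 array symbols were updated, 18 of them members'.

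Probe sets with a mean above the 40th percentile were kept and identical copies in a gene counted once. Gene values needed 3 probe sets and relative values 4, which gave 417377 probe sets. Two-sided tests came from limma 3.58.1 (lmFit, eBayes; R 4.3.3), which fitted all 4 groups together without a block (8 residual degrees of freedom), with Benjamini-Hochberg adjustment over all features. The number of arrays limits the precision. Same-numbered control and shRNA2 arrays deviated together (r of 0.202, 0.432 and 0.264 over genes), but not all those of any other pair of groups, and a block by replicate number did not move the shRNA2 count of genes by over 1.5 times. The steps were tested on simulated data. There the spread of each probe set was drawn independently, so deviations that genes share on an array were not examined.

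Members named with values were those called with all 3 hairpins or called higher, the 3 largest mean changes in each complex, and paralog pairs. Probe sets named were those called. In each related list the 2 largest called mean changes were named. C14orf2, PPARGC1A, PERM1, ARNT, HIF1A, EPAS1, CA9, NDUFS3 and the NDUFB5 and NDUFA9 differences between hairpins were chosen after their values were seen. So were ATP5B, ATP5H, COX6C and the junction JUC21002041. The members and lists were chosen with earlier results of these data known.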

Additional observations from a re-analysis of the deposited data

How the results depend on the processing

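The medians over members kept their direction under every alternative. Leaving out 1 array gave between -0.09 and -0.03 with shRNA1, -0.09 and -0.04 with shRNA2, -0.10 and -0.04 with shRNA3, and -0.09 and -0.04 for the mean. The medians were added after seeing the data. Counts of called members moved more. Leaving out 1 array gave 0 to 10 called with shRNA1, 5 to 16 with shRNA2, 12 to 27 with shRNA3, 10 to 29 for the mean, 0 to 2 between shRNA3 and shRNA1, 0 to 2 between shRNA3 and shRNA2, and 0 to 8 with all 3. For probe sets relative to their gene it gave 0 to 1, 0 to 4, 1 to 6, 1 to 2 for the mean, 0 to 1 for shRNA3 minus shRNA2 and 0 to 1 with all 3.

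Without the level cutoff, members called were 4 with shRNA1, 8 with shRNA2 and 2 with all 3, and probe sets 0 with shRNA1, 1 with shRNA3 and 0 with all 3. Quantile normalization gave 12 members with shRNA1, 1 for shRNA3 minus shRNA1 and 9 with all 3, and 2 probe sets with shRNA2. The median over probe sets gave 3, 9 and 12 members with the 3 hairpins, 17 for the mean, 1 for shRNA3 minus shRNA2 and 2 with all 3. Exon probe sets alone gave 2 members for shRNA3 minus shRNA1. With only the 2 compared groups fitted, members were 5 with shRNA2 and 3 for shRNA3 minus shRNA1, and probe sets 0 with shRNA2, 1 with shRNA3 and 0 with all 3. Without a minimum difference, 3, 17 and 10 probe sets were called with the hairpins and 29 for the mean, where all probe sets gave 0.329%, 1.12%, 0.799% and 1.61%. The causes were not tested.

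With the replicate number as a block, 12 members were called with shRNA2, 1 between shRNA3 and shRNA1, and 1 between shRNA3 and shRNA2, and 2 probe sets with shRNA3. No other count moved by over 1.5 times. No called result changed sign. Of members that were not called, the mean change of SDHB was 0.03 and of NDUFA4L2 -0.09 with the median over probe sets, and of COX4I2 -0.01 without the level cutoff. COX7A2 was at 0.01 without control replicate 1, and COX6A1 at -0.0019 on exon probe sets and -0.0048 without control replicate 3. Each had the other sign with all arrays and the main settings.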
